A study of Homo sapiens with 29 samples.

Results

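DEFA5, ATOH1 and KLF4 are 3 genes of the secretory cells of the gut, described here among the 13492 genes measured in xenograft tumors given a peptide named Helicon4, which the series title describes as directed at β-catenin and its TCF transcription factors. They were picked by symbol, with their behaviour in these tumors already known, so their own values are given as a description and without a test. The tumors grew in mice from COLO320DM, an established human cell line from a colorectal adenocarcinoma that carries extra copies of MYC, and dosing began when tumors had reached the size set by the study. PolyA RNA was sequenced from 29 libraries, all labelled 48 h: Helicon4 at 100 mpk (n = 5), Helicon4 at 30 mpk (n = 6), Helicon4neg at 30 mpk (n = 8) and vehicle (n = 10). The unit mpk is written as in the labels, and the labels do not say how Helicon4neg differs from Helicon4. The labels do not say whether the libraries of a group came from separate animals, so errors and p-values measure the spread between libraries.

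Paneth cells sit at the base of the crypts of the small intestine and secrete antimicrobial peptides from large granules. DEFA5 encodes an alpha-defensin, one of the main peptides of those granules. ATOH1 is a basic helix-loop-helix (bHLH) transcription factor that commits intestinal progenitors to the secretory fates (Paneth, goblet and enteroendocrine), and Notch signalling, through the repressor HES1, keeps it off in absorptive progenitors. KLF4 is a zinc-finger transcription factor of differentiated epithelium, needed in mice for goblet cells of the colon to mature. β-catenin bound to TCF factors is the nuclear arm of Wnt signalling, which in mice is required for Paneth cells and for their defensin genes. Healthy colon holds few Paneth cells.

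ATOH1 (ENSG00000172238) lies at chr4:93828753-93830964 on the plus strand of GRCh38. KLF4 (ENSG00000136826) lies at chr9:107484852-107490482 on the minus strand; both positions come from GENCODE 29. The 250 bases upstream of the ATOH1 start (RefSeq, GRCh38.p14, chr4:93828503-93828752, plus strand) are shown because ATOH1 was the member that was higher with Helicon4, a peptide described as directed at β-catenin and its TCF factors. The upstream windows of DEFA5 and KLF4 are not shown, so the members are not compared in this. The capitals mark the single match to the TCF/LEF core motif, searched as CTTTGAT on both strands.
ATOH1 upstream: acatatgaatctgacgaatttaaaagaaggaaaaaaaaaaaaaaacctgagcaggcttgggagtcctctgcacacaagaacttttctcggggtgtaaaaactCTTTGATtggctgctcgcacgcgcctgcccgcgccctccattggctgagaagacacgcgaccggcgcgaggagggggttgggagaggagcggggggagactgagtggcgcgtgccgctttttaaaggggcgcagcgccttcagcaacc
The match ran from position -148 to -142 relative to the start, and 2.26% of 35116 such upstream windows held at least 1 match. The window also held 1 E-box (CANNTG, the kind of site that bHLH factors bind), which did not overlap that match, and 61.8% of windows held an E-box. A match is a run of letters and says nothing of binding.

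The deposited values are CPM, reads of a gene relative to the size of its library, on the authors' own scaling, and they gave back whole reads: 34.3 to 61.6 M (mega) per library at 100 mpk, 40.8 to 48.6 M at 30 mpk, 27 to 59.4 M with Helicon4neg and 26.8 to 60.9 M with vehicle. Helicon4neg replicate 2 stood apart from the other libraries, with the lowest slope of log2 value on log2 gene length (-0.33), and vehicle replicate 6 was next (-0.20). Library titles carry codes whose meaning is not stated, and no code holds vehicle together with Helicon4. The title code and the difference between Helicon4 and vehicle therefore cannot be told apart within a code. A block for the code links vehicle and Helicon4 only through Helicon4neg. Helicon4neg shares code SH7080 with 2 vehicle libraries and code SH7081 with 1 Helicon4 library, at 30 mpk. For 100 mpk the link runs on through the 1 library at 30 mpk in code SH7083. Of 8 epithelial markers, KRT8, KRT18 and EPCAM averaged 187, 102 and 32.7 CPM at 100 mpk and 175, 111 and 27.9 CPM with vehicle. CLDN4, ESRP1 and KRT19 were low, at 3.60, 1.35 and 0.958 CPM at 100 mpk and 1.18, 1.06 and 0.690 CPM with vehicle. CDH1 and CLDN3 were not found among the 13492 genes. CDX2, the intestinal master regulator, is on another list and averaged 2087 CPM at 100 mpk, 2652 at 30 mpk, 4109 with Helicon4neg and 3135 with vehicle. Gene copy number was not measured, so its part in the CDX2 level was not tested. No mouse genome is named in the submitters' processing notes, so host reads that match human genes cannot be told apart from tumor reads in any value, those of KLF4, JUN, FOS and the markers of other cells included. In bulk tumors fewer cells of a type and less RNA per cell cannot be told apart.

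DEFA5 (ENSG00000164816), on the minus strand of chromosome 8, was far lower with either dose of Helicon4 than with vehicle, and it differed between the doses. At 100 mpk the 5 libraries held 1.12, 1.11, 0.854, 3.59 and 3.16 CPM. At 30 mpk the libraries held 3.60 CPM at the lowest, 4.88 at the median and 8.06 at the highest. With Helicon4neg the lowest, median and highest values were 42.0, 76.0 and 163 CPM, and with vehicle they were 48.8, 75.7 and 179 CPM. No library of either Helicon4 dose came near any library of the other 2 groups, and every library at 100 mpk was below every library at 30 mpk, the closest values being 3.59 and 3.60 CPM. Helicon4neg and vehicle overlapped almost throughout.

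**Figure D1:**
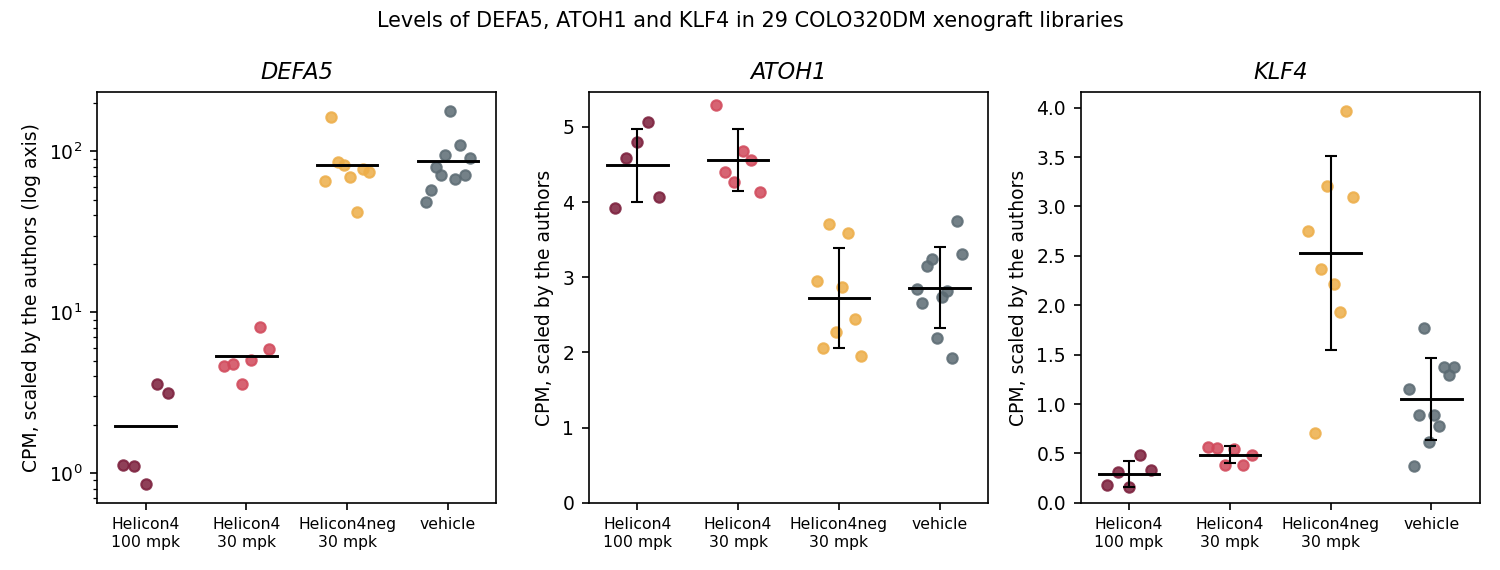
CPM of DEFA5 (left, log axis), ATOH1 (middle) and KLF4 (right) in each library, by group; points are libraries, horizontal lines are means, and vertical bars (ATOH1 and KLF4) are SD. DEFA5 reaches at most 8.06 CPM in any Helicon4 library and is never below 42.0 CPM in the other groups, whereas ATOH1 is higher in all Helicon4 libraries.

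In means, DEFA5 stood at 1.97 ± 1.30 CPM at 100 mpk (SD, n = 5), 5.33 ± 1.53 at 30 mpk (n = 6), 82.5 ± 35.3 with Helicon4neg (n = 8) and 86.9 ± 37.0 with vehicle (n = 10). The mean was 44.2-fold lower at 100 mpk than with vehicle and 16.3-fold lower at 30 mpk. At the matched dose of 30 mpk it was 15.5-fold lower with Helicon4 than with Helicon4neg. The step between the doses was 2.71-fold, lower at 100 mpk. On the scale of log2(CPM + 1), fold changes against vehicle were -4.91 ± 0.26 (SE) at 100 mpk, -3.74 ± 0.25 at 30 mpk and -0.08 ± 0.23 for Helicon4neg; the difference between Helicon4 and Helicon4neg at 30 mpk was -3.66 ± 0.26, and that between the doses was -1.17 ± 0.29. Non-overlapping and lower groups were seen in 4.13% of the 13373 genes at 100 mpk against vehicle, 2.39% at 30 mpk against vehicle, 3.32% for Helicon4 against Helicon4neg and 1.71% for 100 against 30 mpk, and DEFA5 was among them in each. Since the gene was picked from these contrasts, nothing is read from that.

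The place of DEFA5 in the transcriptome moved accordingly. Per kilobase of transcript, its mean level was 4.38 CPM at 100 mpk, 11.9 at 30 mpk, 184 with Helicon4neg and 194 with vehicle. Ranked by that level among the 13492 genes, it stood at 7446 and 3737 with Helicon4 at 100 and 30 mpk, against 183 with Helicon4neg and 178 with vehicle. A Paneth cell defensin was thus among the most abundant transcripts per length in the vehicle tumors. That level was divided by a short length, 449 bases. In CPM not divided by length, XBP1 (380) and KRT8 (175), among others, stood above DEFA5 (86.9) with vehicle. Counting error was not the limit: the 100 mpk libraries held 32 to 224 reads of DEFA5 each and 533 in sum, against 38832 in sum with vehicle.

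The highest DEFA5 values with Helicon4neg and with vehicle were those of the 2 libraries that stood apart. Without them the means were 70.9 ± 14.6 CPM with Helicon4neg (SD, n = 7) and 76.7 ± 18.9 with vehicle (n = 9), and both stayed far above the Helicon4 groups. Slopes differed between the groups, with medians of 0.035 at 100 mpk, 0.014 at 30 mpk, 0.019 with Helicon4neg and -0.045 with vehicle. With the slope as a covariate the DEFA5 differences from vehicle were -4.68 at 100 mpk and -3.49 at 30 mpk. The small difference between Helicon4neg and vehicle ran from -0.23 to 0.05 on the log2 scale as single libraries were left out, so its sign was not settled. Within title code SH7081 the 1 library of Helicon4 at 30 mpk held 4.63 CPM and the 3 of Helicon4neg held 42.0 to 77.4 CPM. Within code SH7083 the 4 libraries at 100 mpk held 0.854 to 3.59 CPM and the 1 at 30 mpk held 5.90 CPM. Within code SH7080 the 5 Helicon4neg libraries averaged 93.1 CPM and the 2 vehicle libraries 80.7 CPM. The differences between compounds and between doses were thus also present within a code, with 1 library on one side.

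**Figure D2:**
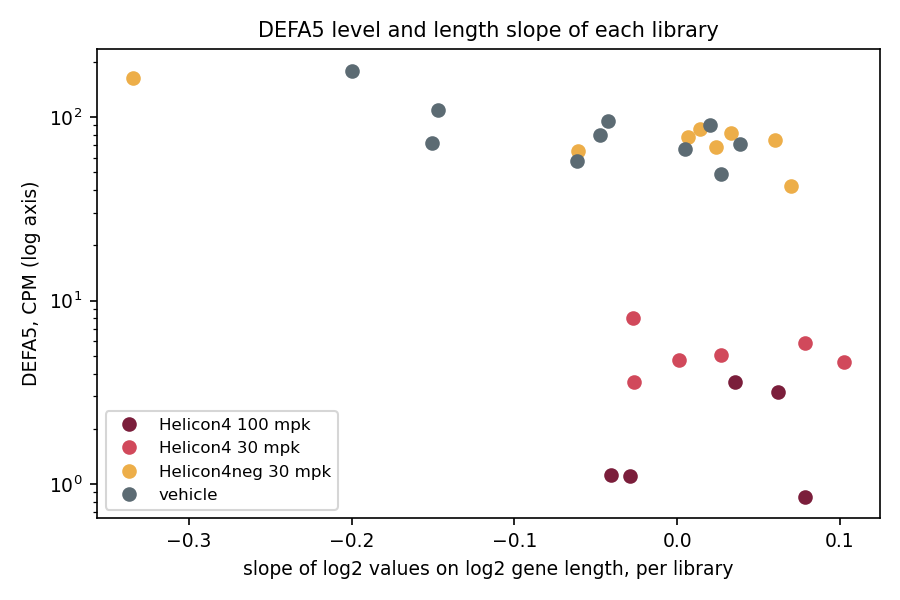
DEFA5 in CPM (vertical, log axis) against the slope of log2 value on log2 gene length of each library (horizontal), by group. The 2 libraries with the lowest slopes, Helicon4neg replicate 2 at -0.33 and vehicle replicate 6 at -0.20, hold the 2 highest DEFA5 values, and slopes run from -0.041 to 0.079 at 100 mpk, -0.027 to 0.10 at 30 mpk, -0.33 to 0.070 with Helicon4neg and -0.20 to 0.039 with vehicle.

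ATOH1 went the other way. Its libraries at 100 mpk held 3.92, 4.59, 4.81, 5.07 and 4.07 CPM, and those at 30 mpk ran from 4.14 through a median of 4.48 to 5.30 CPM. With Helicon4neg the lowest, median and highest values were 1.96, 2.65 and 3.71 CPM, and with vehicle they were 1.93, 2.83 and 3.75 CPM. Every Helicon4 library was above every library of the other groups, by a narrow margin, and the doses overlapped.

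ATOH1 averaged 4.49 ± 0.49 CPM at 100 mpk, 4.56 ± 0.41 at 30 mpk, 2.73 ± 0.67 with Helicon4neg and 2.86 ± 0.54 with vehicle (SD, n as above). The means were 1.57 times that of vehicle at 100 mpk and 1.59 times at 30 mpk, and 1.67 times that of Helicon4neg at the matched dose. On the log2 scale the differences were 0.52 ± 0.11 (SE) at 100 mpk and 0.53 ± 0.10 at 30 mpk against vehicle, and 0.59 ± 0.11 for Helicon4 against Helicon4neg. They were -0.06 ± 0.10 for Helicon4neg against vehicle and -0.02 ± 0.12 between the doses. In order of level, 30 mpk and 100 mpk did not differ beyond their spread, nor did vehicle and Helicon4neg, and the gap lay between these pairs. Across genes, non-overlapping and higher groups were seen in 4.67% at 100 mpk against vehicle, 1.96% at 30 mpk against vehicle and 3.78% for Helicon4 against Helicon4neg.

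Unlike DEFA5, ATOH1 was a low transcript in every group: per kilobase it stood at 2.03 CPM at 100 mpk, 2.06 at 30 mpk, 1.23 with Helicon4neg and 1.29 with vehicle, at ranks 9803, 9742, 10779 and 10674 of 13492. Each library held 44 to 316 reads of it. Within code SH7081 the 1 Helicon4 library at 30 mpk held 5.30 CPM and the 3 Helicon4neg libraries 1.96 to 3.58 CPM. Within code SH7083 the 100 mpk mean was 4.60 CPM and the 30 mpk library held 4.14 CPM. ATOH1 thus differed little between the doses, where the DEFA5 means differed 2.71-fold. These differences were not compared by a test. Only 1 library at 30 mpk shared a title code with 100 mpk, so dose and code can hardly be told apart.

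KLF4 had yet another pattern, lowest with Helicon4 and highest with Helicon4neg. At 100 mpk the libraries held 0.182, 0.312, 0.160, 0.481 and 0.334 CPM, and at 30 mpk they ran from 0.378 through a median of 0.511 to 0.568 CPM. With Helicon4neg the lowest, median and highest values were 0.701, 2.56 and 3.97 CPM, and with vehicle they were 0.368, 1.02 and 1.77 CPM. The Helicon4 groups lay below all but 1 of the vehicle libraries, and 7 of 8 Helicon4neg libraries lay above every vehicle library. Helicon4 and Helicon4neg at 30 mpk did not overlap, a pattern that 3.32% of genes had in that direction.

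The KLF4 means were 0.294 ± 0.130 CPM at 100 mpk, 0.485 ± 0.085 at 30 mpk, 2.53 ± 0.98 with Helicon4neg and 1.05 ± 0.42 with vehicle (SD, n as above). KLF4 was thus 3.57-fold lower than with vehicle at 100 mpk, 2.16-fold lower at 30 mpk and 2.41 times the vehicle mean with Helicon4neg. At 30 mpk it was 5.21-fold lower with Helicon4 than with Helicon4neg, with the vehicle level lying between them. On the log2(CPM + 1) scale, which shrinks changes of a gene this low, the differences from vehicle were -0.64 ± 0.17 (SE), -0.44 ± 0.16 and 0.75 ± 0.14 for 100 mpk, 30 mpk and Helicon4neg. Those for Helicon4 against Helicon4neg and for 100 against 30 mpk were -1.19 ± 0.16 and -0.20 ± 0.18. With edgeR's quasi-likelihood fit on whole reads the same differences from vehicle were -1.78, -1.11 and 1.28.

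KLF4 rested on few reads: 6 to 30 per library at 100 mpk, 16 to 28 at 30 mpk, 15 to 174 with Helicon4neg and 10 to 80 with vehicle. The lowest Helicon4neg value was that of replicate 2, which stood apart, and without it the Helicon4neg mean was 2.79 ± 0.70 CPM (n = 7). Within code SH7081 the 1 Helicon4 library held 0.568 CPM and the 3 Helicon4neg libraries 1.93 to 3.97 CPM. Within code SH7080 the 5 Helicon4neg libraries averaged 2.25 CPM and the 2 vehicle libraries 1.34 CPM. In order of level, neighbouring groups of KLF4 (Helicon4neg, vehicle, 30 mpk, 100 mpk) overlapped in each step.

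**Figure D3:**
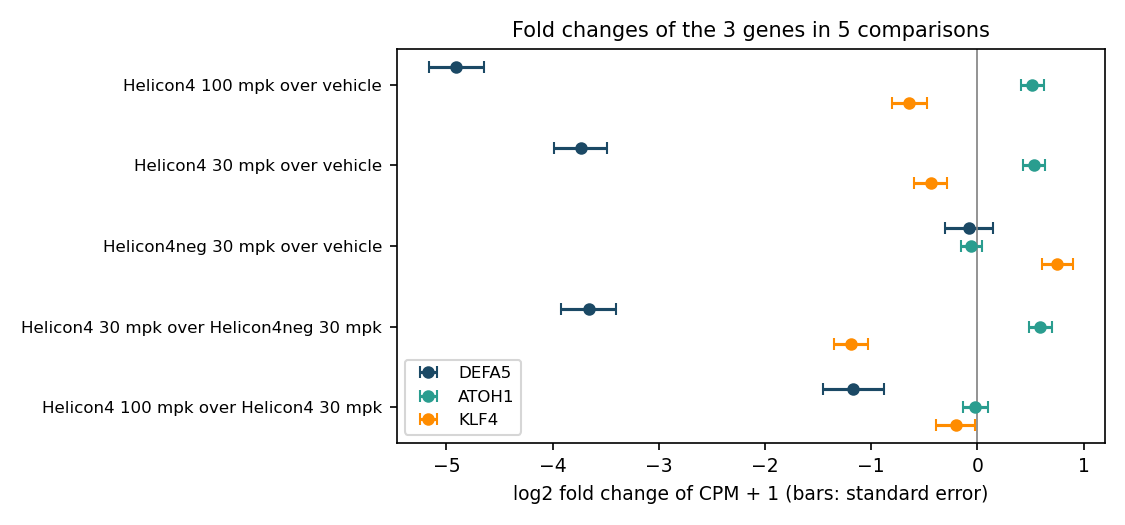
Log2 fold change of CPM + 1 (horizontal) of DEFA5, ATOH1 and KLF4 in 5 comparisons (vertical); points are fitted differences of the first-named group over the second and bars are standard errors. DEFA5 stands at -4.91 and -3.74 and KLF4 at -0.64 and -0.44 for the doses of Helicon4 over vehicle while ATOH1 stands at 0.52 and 0.53, and for Helicon4neg over vehicle only KLF4 lies away from 0 among the 3.

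The members did not move as a set from library to library. Over the 29 libraries, which share their 4 groups, Pearson's r of log2 values was -0.83 between DEFA5 and ATOH1, 0.68 between DEFA5 and KLF4 and -0.57 between ATOH1 and KLF4. After group means were taken out, r was -0.32, -0.13 and 0.17 in the same order. Most of the likeness between the members was thus a likeness of group means.

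The genes most like each member were taken among 10889 genes with a mean of at least 5 CPM, by Pearson's r of log2 values over the same 29 libraries. For DEFA5 they were HMGXB3 (0.97), CABLES1 (0.97), RASL11B (0.96), ZNF385C (0.96) and SERPIND1 (0.96). By Spearman's rho, which uses ranks of the values, they stood at places 87, 3, 83, 251 and 356, so the order depended on the measure. HMGXB3 averaged 76.2 CPM at 100 mpk, 95.1 at 30 mpk, 242 with Helicon4neg and 217 with vehicle. Their r with DEFA5 after group means were taken out lay between 0.14 (SERPIND1) and 0.62 (CABLES1).

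For ATOH1 the leading genes were PRKG2 (0.86), SEMA5A (0.85), SOX9 (0.84), GPA33 (0.84) and CDK19 (0.84). By Spearman's rho they stood at places 3, 13, 22, 19 and 5. SOX9 encodes an HMG-box factor required for Paneth cells in mice, GPA33 an intestinal epithelial surface antigen and PRKG2 a cyclic GMP-dependent kinase of the gut. GPA33 averaged 43.7 CPM at 100 mpk, 35.9 at 30 mpk, 13.9 with Helicon4neg and 14.6 with vehicle, so that a surface protein of the intestinal epithelium had the same group order as ATOH1 except between the doses.

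For KLF4 the leading genes were JUN (0.93), RUNX1 (0.91), FOS (0.90), SAT1 (0.89) and TIMM23B (0.89). By Spearman's rho they stood at places 8, 7, 94, 17 and 101. JUN and FOS encode the subunits of AP-1 and are immediate early genes, transcribed within minutes of a stimulus. JUN averaged 57.3 CPM at 100 mpk, 66.9 at 30 mpk, 191 with Helicon4neg and 92.8 with vehicle, and FOS averaged 3.62, 5.01, 22.9 and 6.24 CPM in the same groups. After group means were taken out, r with KLF4 was 0.87 for JUN and 0.84 for FOS. Both were picked by their r with KLF4 in these same libraries, so these values are not comparable with those of the member pairs. Helicon4neg replicate 2, which stood apart in its slope on gene length, held the lowest KLF4, JUN (45.4 CPM) and FOS (2.81 CPM) of its group. Vehicle replicate 4, highest in KLF4 among vehicle libraries, was highest in JUN (176 CPM) and FOS (16.5 CPM) too. KLF4 thus varied with these picked genes between libraries of the same treatment, from which no link to AP-1 is read. The part of this in its difference between groups was not tested.

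**Figure D4:**
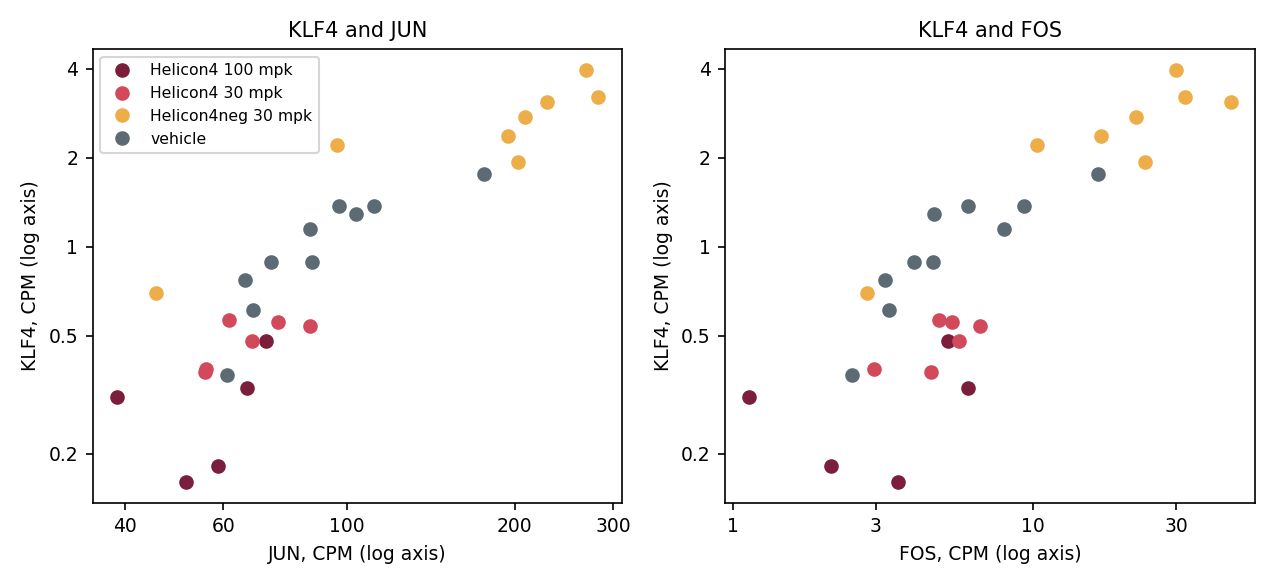
KLF4 (vertical) against JUN (left) and FOS (right), all in CPM on log axes, with 1 point for each of the 29 libraries, by group. Within Helicon4neg and within vehicle, libraries with more JUN or FOS also hold more KLF4, and 1 Helicon4neg library (replicate 2) lies at the low end of its group in all 3 genes.

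Genes around these 3 were read from 11 lists of lineages and pathways, of which 97 of 228 symbols were found among the 13492 genes and 94 were tested. The lists were written with earlier results of these data known, so nothing is read from a share above that of all genes. Tests were limma's on log2(CPM + 1) with Benjamini-Hochberg adjustment over all 13373 genes. At 100 mpk against vehicle 26 list genes rose and 21 fell, or 50%, beside 30.2% of all genes (14.3% up and 15.9% down). At 30 mpk against vehicle 12 rose and 9 fell (22.3%, beside 11.1% of all genes, 5.86% up and 5.22% down), and for Helicon4neg against vehicle 3 rose and 1 fell (4.26%, beside 4.84%, 2.21% up and 2.62% down). For Helicon4 against Helicon4neg at 30 mpk 10 rose and 16 fell (27.7%, beside 15.1%, 7.78% up and 7.31% down), and for 100 against 30 mpk 3 rose and 2 fell (5.32%, beside 3.6%, 1.74% up and 1.86% down). Median log2 fold changes of the list genes were 0.0039, 0.035, 0.069, -0.056 and -0.0032 in that order of comparisons, beside 0.0051, -0.0020, 0.0023, -0.0029 and 0.0074 over all genes. A block for the title code widened standard errors at 100 mpk against vehicle 3.22 times at the median and left 3 list genes called there (EPHB3, PTGS1 and CA2), 1 at 30 mpk against vehicle (EPHB3), 0 for Helicon4neg against vehicle (17 at an unadjusted p under 0.05) and 5 for Helicon4 against Helicon4neg (EPHB3, SOX9, PTGS1, BMX and CA2). All other calls of these lists named below were lost under it, with adjusted p of 0.0532 or more. PTGS1 passed the filter on low values only through Helicon4 libraries (values below), so nothing is read from its calls. Of the 5 calls between the doses, those of CD24 and KRT20 (higher) and of JAG2 and KLF15 (lower) were each also lost when 1 library was left out, with 8, 1, 1 and 5 libraries having that effect; with columns rescaled KLF15 was lost too (adjusted p = 0.0569).

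**Figure D5:**
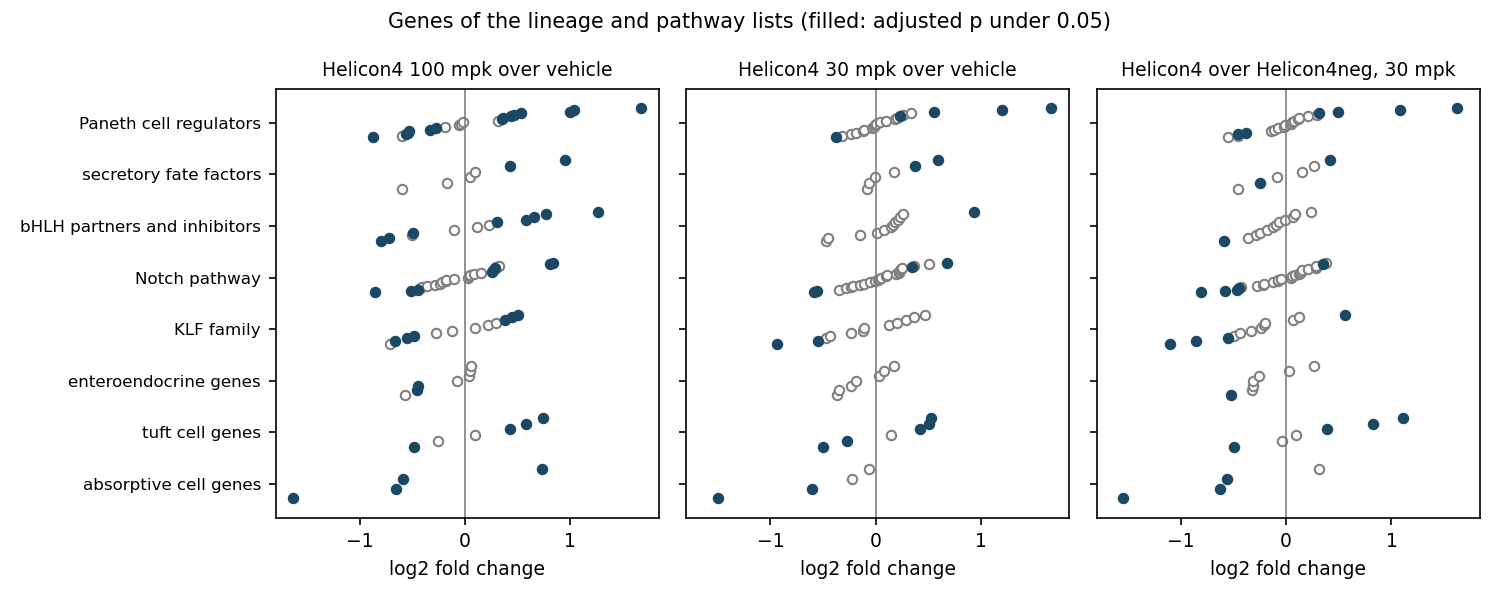
Log2 fold changes (horizontal) of the genes of 8 lists (vertical) in 3 comparisons; each point is a gene, filled where limma's adjusted p was under 0.05. EPHB3 is the rightmost gene of the Paneth cell regulators in each panel (1.67, 1.66 and 1.63), and FABP2 is the leftmost absorptive cell gene (-1.63, -1.49 and -1.55).

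Regulators and receptors that place and maintain Paneth cells moved both ways. Of 20 such genes 8 rose and 6 fell at 100 mpk, 4 rose and 1 fell at 30 mpk and 0 of 20 passed with Helicon4neg, each against vehicle; 4 rose and 2 fell for Helicon4 against Helicon4neg. These were 70%, 25%, 0% and 30% of the list, beside 30.2%, 11.1%, 4.84% and 15.1% of all genes. With Helicon4neg 2 of the 20 had an unadjusted p under 0.05 by limma, and edgeR and DESeq2 called 0. EPHB3, the ephrin receptor that keeps Paneth cells at the crypt base in mice, averaged 40.5 ± 5.3 CPM at 100 mpk, 40.3 ± 6.9 at 30 mpk, 12.5 ± 2.7 with Helicon4neg and 12 ± 2.0 with vehicle (SD). Its log2 fold changes against vehicle were 1.67 ± 0.13 (SE, adjusted p = 3.87e-11) and 1.66 ± 0.12 (adjusted p = 2.77e-11), and it was called under the block as well (2.37 and 2.09, adjusted p = 0.00439 and 0.00202). SOX9 averaged 10.7 CPM at 100 mpk, 12.1 at 30 mpk, 5.27 with Helicon4neg and 4.68 with vehicle, and rose by 1.03 ± 0.12 and 1.20 ± 0.12 against vehicle and by 1.08 ± 0.12 against Helicon4neg. Against vehicle SOX9 was not called by limma under the block (adjusted p = 0.363 at 100 mpk and 0.0735 at 30 mpk). Calls of Helicon4 against vehicle that are kept or lost under the block rest on the indirect link through Helicon4neg given above. DEFA5 thus stood at a small part of its vehicle level in tumors where EPHB3 and SOX9, both textbook Paneth cell genes and Wnt targets in the gut, were higher. The 6 genes of this list that fell at 100 mpk, XBP1 and NOD2 among them, went the other way.

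Other genes of that list followed the dose less evenly. CD24, a surface protein that marks Paneth cells in mice, rose by 1.00 at 100 mpk and 0.56 at 30 mpk against vehicle. Its rise of 0.44 at 100 over 30 mpk was lost on leaving out any 1 of 8 libraries (adjusted p up to 0.146) and with columns rescaled (adjusted p = 0.0769). β-catenin itself (CTNNB1) rose by 0.35 and 0.24 against vehicle and by 0.31 against Helicon4neg. TCF7L2, the TCF factor that Paneth cells require in mice, rose by 0.36 at 100 mpk, a call lost without 100 mpk replicate 2 or replicate 4 (adjusted p = 0.103 and 0.0623), and stood at 0.33 at 30 mpk (adjusted p = 0.0583). XBP1, which drives secretory capacity, fell by 0.54 at 100 mpk against vehicle and by 0.38 for Helicon4 against Helicon4neg, and NOD2, the bacterial sensor of Paneth cells, fell by 0.56 and 0.37 against vehicle and by 0.46 against Helicon4neg. The 13 other products of Paneth cells on a list of their own (DEFA6, LYZ and PLA2G2A among them) were not found among the 13492 genes. DEFA5 was thus the sole granule product described. Of 2 other antimicrobial genes tested, ANG and NOS2, 0 of 2 passed by limma in any of the 5 comparisons, though 1 had an unadjusted p under 0.05 at each dose against vehicle and between the doses, and DESeq2 called 1 between the doses.

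Around ATOH1, 6 factors of secretory fate were tested. At 100 mpk and at 30 mpk against vehicle 2 rose and 0 fell: SOX4, an HMG-box factor (0.95 and 0.59), and CBFA2T2, a co-repressor of the secretory lineage (0.42 and 0.38). This was 33.3% of the list at each dose, beside 30.2% and 11.1% of all genes. SOX4 averaged 299.7 CPM at 100 mpk, 231 at 30 mpk, 175 with Helicon4neg and 154 with vehicle. Against Helicon4neg it rose by 0.42, a call lost without Helicon4 30 mpk replicate 1, 4 or 6 (adjusted p of 0.0519 to 0.0697). GFI1, a repressor that acts downstream of ATOH1 in Paneth and goblet precursors, stood at -0.17 and -0.06 against vehicle without a call and fell by 0.25 against Helicon4neg; leaving out any 1 of 6 libraries ended that call (adjusted p of 0.0616 to 0.0823), as did rescaled columns (adjusted p = 0.18). The goblet cell list had 2 tested genes, and 0 of 2 passed by limma in any comparison; between the doses 1 had an unadjusted p under 0.05 and DESeq2 called 1. MUC2, TFF3, SPDEF, AGR2, NEUROG3 and NEUROD1 were not found among the 13492 genes.

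Partners and inhibitors of bHLH factors came next. Of 12 genes 5 rose and 3 fell at 100 mpk, 1 rose and 0 fell at 30 mpk and 2 rose and 0 fell with Helicon4neg, each against vehicle. These were 66.7%, 8.33% and 16.7% of the list, beside 30.2%, 11.1% and 4.84% of all genes. ID3, which holds bHLH partners away from DNA, averaged 69.4 CPM at 100 mpk, 55.6 at 30 mpk, 60.7 with Helicon4neg and 29.3 with vehicle, and rose by 1.26, 0.94 and 1.03. Its rise was therefore shared by Helicon4neg, and the difference of Helicon4 from Helicon4neg was -0.10 (adjusted p = 0.791). ID1 rose by 0.77 at 100 mpk and by 0.55 with Helicon4neg, the second call being lost on leaving out any 1 of 12 libraries (adjusted p up to 0.0885). Of the dimer partners of ATOH1, TCF3 fell by 0.49 at 100 mpk and TCF12 stood at 0.23 (adjusted p = 0.496). HES6 and ASCL2 fell by 0.80 and 0.72 at 100 mpk, and the block by title code gave both the opposite sign (0.18 and 0.22). Helicon4neg replicate 2, in the code that links Helicon4neg to vehicle, was far above its group in both (167 and 138 CPM). Its part in the turned signs was not tested. ATOH8 rose by 0.58, and HUWE1, the ligase that degrades ATOH1, stood at 0.11 (adjusted p = 0.502).

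Notch genes, which act upstream of ATOH1, were tested in 25 cases. Against vehicle 4 rose and 3 fell at 100 mpk, 2 rose and 2 fell at 30 mpk and 0 of 25 passed with Helicon4neg; 1 rose and 4 fell for Helicon4 against Helicon4neg. These were 28%, 16%, 0% and 20% of the list, beside 30.2%, 11.1%, 4.84% and 15.1% of all genes. With Helicon4neg 7 of the 25 had an unadjusted p under 0.05 by limma, and edgeR and DESeq2 called 0. HES1, the Notch effector that represses ATOH1, averaged 14.6 ± 8.8 CPM at 100 mpk, 9.73 ± 0.95 at 30 mpk, 15.4 ± 4.1 with Helicon4neg and 15.4 ± 4.0 with vehicle (SD). It stood at -0.18 at 100 mpk (adjusted p = 0.515), where replicate 4 alone held 30.2 CPM. It fell by 0.59 at 30 mpk against vehicle, a call lost without vehicle replicate 4 or 6 or Helicon4 30 mpk replicate 1, 3 or 6 (adjusted p up to 0.085), and by 0.58 against Helicon4neg, a call lost without the 2 libraries that stood apart (adjusted p = 0.056) and on leaving out any 1 of 9 libraries. HEY1, a second effector, fell by 0.45 and 0.55 against vehicle and by 0.81 against Helicon4neg, with means of 10.4 CPM at 100 mpk, 9.56 at 30 mpk, 17.5 with Helicon4neg and 14.6 with vehicle.

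Ligands and co-activators of the pathway were split. The ligand gene JAG2 fell by 0.86 at 100 mpk against vehicle, by 0.64 against 30 mpk (lost without 100 mpk replicate 2, adjusted p = 0.0637) and by 0.47 at 30 mpk against Helicon4neg (lost without 30 mpk replicate 6, adjusted p = 0.055). DLL3 fell by 0.52 at 100 mpk, a call lost without 100 mpk replicate 3 (adjusted p = 0.067). The co-activator genes MAML3 (0.83 and 0.68 at 100 and 30 mpk) and MAML2 (0.81 at 100 mpk) rose against vehicle. NOTCH1 stood at 0.03 and 0.36 (adjusted p = 0.903 and 0.0695). DLL1 and DLL4 were not found among the 13492 genes.

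KLF4 has 12 relatives among the genes tested. Against vehicle 3 rose and 3 fell at 100 mpk, 0 rose and 2 fell at 30 mpk and 0 of 12 passed with Helicon4neg; 1 rose and 3 fell for Helicon4 against Helicon4neg. These were 50%, 16.7%, 0% and 33.3% of the list, beside 30.2%, 11.1%, 4.84% and 15.1% of all genes. With Helicon4neg 2 of the 12 had an unadjusted p under 0.05 by limma, edgeR called 1 and DESeq2 called 2. KLF2, which shares targets with KLF4 in stem cells and endothelium, averaged 11.7 CPM at 100 mpk, 7.81 at 30 mpk, 17.8 with Helicon4neg and 11.3 with vehicle. It fell by 1.10 against Helicon4neg (adjusted p = 0.000841) and stood at 0.10 and -0.47 against vehicle at 100 and 30 mpk without a call. KLF5, the crypt relative that opposes KLF4 in the gut, fell by 0.93 at 30 mpk against vehicle, lost without 30 mpk replicate 3 or 5 (adjusted p = 0.0591 or more) and with columns rescaled to a common sum (adjusted p = 0.0508). KLF15 fell by 0.67 at 100 mpk, KLF16 by 0.55 (lost without 100 mpk replicate 2, adjusted p = 0.0786) and KLF12 by 0.48 (lost without vehicle replicate 9 or 100 mpk replicate 1, 2 or 3, adjusted p up to 0.112, and with columns rescaled, adjusted p = 0.123), while KLF6 rose by 0.45 (lost without 100 mpk replicate 2, 3 or 4, adjusted p up to 0.0619). Of these, KLF16 and KLF6 had the opposite sign under the block by title code (0.27 and -0.35). The relatives thus held no single direction.

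Among the other epithelial lineages the enteroendocrine list (7 tested) had 2 falls at 100 mpk against vehicle, SYP (-0.46) and CPE (-0.45), and 1 fall for Helicon4 against Helicon4neg, TPH1 (-0.53), the enzyme that starts serotonin synthesis. These were 28.6% and 14.3% of the list, beside 30.2% and 15.1% of all genes. The SYP call was lost without 100 mpk replicate 5 (adjusted p = 0.0603) and the block by title code gave the opposite sign (0.41), and the CPE call was lost without 100 mpk replicate 1, 3 or 4 (adjusted p up to 0.0792) and with columns rescaled (adjusted p = 0.0905). The tuft cell list (6 tested) had 3 rises and 1 fall at 100 mpk and 3 rises and 2 falls at 30 mpk against vehicle, and 3 rises and 1 fall for Helicon4 against Helicon4neg. These were 66.7%, 83.3% and 66.7% of the list, beside 30.2%, 11.1% and 15.1% of all genes. PTGS1, which encodes cyclooxygenase 1, averaged 1.27 CPM at 100 mpk, 0.835 at 30 mpk, 0.391 with Helicon4neg and 0.357 with vehicle and rose by 0.74 and 0.43. Its highest values were 0.532 CPM with vehicle and 0.540 CPM with Helicon4neg. PTGS1 thus reached the filter of 1 CPM only through Helicon4 libraries, where it was higher, and nothing is read from its calls. DCLK1, a kinase of tuft cells, rose by 0.58 and 0.51 against vehicle and by 0.82 against Helicon4neg. BMX, a kinase, rose by 1.11 against Helicon4neg and fell by 0.58 with Helicon4neg against vehicle; its rise of 0.43 at 100 mpk was lost without 100 mpk replicate 4 (adjusted p = 0.0775) and had the opposite sign under that block (-0.12). IL17RB, the receptor for IL-25, fell by 0.49 and 0.27 against vehicle (the second lost without 30 mpk replicate 5, adjusted p = 0.0587, and with columns rescaled, adjusted p = 0.232), and ALOX5AP, which serves leukotriene synthesis, fell by 0.50 at 30 mpk, a call lost on leaving out any 1 of 11 libraries (adjusted p up to 0.092).

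Of 6 absorptive cell genes measured, 4 were tested: 1 rose and 3 fell at 100 mpk against vehicle, 0 rose and 2 fell at 30 mpk, and 0 rose and 3 fell for Helicon4 against Helicon4neg. These were 100%, 50% and 75% of those tested, beside 30.2%, 11.1% and 15.1% of all genes. FABP2, the fatty acid carrier of enterocytes, averaged 9.33 ± 1.04 CPM at 100 mpk, 10.5 ± 1.9 at 30 mpk, 33.1 ± 8.4 with Helicon4neg and 31.7 ± 7.2 with vehicle (SD), with log2 fold changes of -1.63 ± 0.16 and -1.49 ± 0.15 (SE). CA2, carbonic anhydrase 2, fell by 0.65 and 0.60. CDX2 fell by 0.59 at 100 mpk against vehicle and by 0.63 against Helicon4neg at 30 mpk, and rose by 0.40 with Helicon4neg against vehicle, a call lost without Helicon4neg replicate 1, 4 or 7 (adjusted p up to 0.0621). As the copy number of CDX2 was not measured, these differences are not read as a change of absorptive identity. KRT20, a keratin of mature colonocytes, rose by 0.73 at 100 mpk against vehicle, where the block by title code gave the opposite sign (-0.58), and by 0.80 against 30 mpk, a call lost without 100 mpk replicate 4 (adjusted p = 0.0513).

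Markers of other cells were read beside these results. The summed level of 3 of 9 endothelial markers (CLDN5, EGFL7 and ERG) ran from 103 to 152 CPM at 100 mpk, 151 to 189 at 30 mpk, 169 to 226 with Helicon4neg and 143 to 203 with vehicle. The others, PECAM1, VWF, CDH5, KDR, TIE1 and TEK, were not found among the genes measured. The same held for COL1A2, DCN and LUM of the fibroblast list and CD68, CD14 and LAPTM5 of the leukocyte list. CLDN5, a junction protein of endothelium, averaged 2.99 CPM at 100 mpk, 5.50 at 30 mpk, 19.0 with Helicon4neg and 14.2 with vehicle. Fibroblast (4 of 10), leukocyte (4 of 10) and skin markers (2 of 5) had median sums of 43.2, 34.7 and 21.2 CPM at 100 mpk, 44.5, 29.7 and 17.3 at 30 mpk, 35.4, 38.7 and 20.5 with Helicon4neg, and 37.7, 30.7 and 22.4 with vehicle, and epithelial markers (6 of 8) had 331, 308, 286 and 313 CPM. At 100 mpk against vehicle 3 of 3 endothelial markers fell, 2 of 4 fibroblast markers rose and 1 fell, 1 of 4 leukocyte markers rose and 1 fell, and 0 of 2 skin markers passed by limma (1 at an unadjusted p under 0.05, with 0 called by edgeR and 1 by DESeq2), beside the 30.2% of all genes given above. COL1A1, a collagen of fibroblasts, averaged 21.4 CPM at 100 mpk, 21 at 30 mpk, 10.3 with Helicon4neg and 12.3 with vehicle, and PDGFRA 2.02, 0.838, 0.470 and 0.366 CPM in the same groups. CTSS, a protease of leukocytes, averaged 5.48 CPM at 100 mpk, 5.38 at 30 mpk, 10.3 with Helicon4neg and 9.99 with vehicle. Of the calls at 100 mpk against vehicle, that of EGFL7 (adjusted p = 0.0415) was lost on leaving out any 1 of 8 libraries and had the opposite sign under the block by title code (0.72), and that of PDGFRB (adjusted p = 0.034) was lost on leaving out any 1 of 5 libraries and with columns rescaled (adjusted p = 0.228). PDGFRA alone among the markers of other cells was called there under that block (adjusted p = 0.0209). Its mean reached the 1 CPM of the filter only at 100 mpk, the group where it was highest, so nothing is read from its calls. At 30 mpk against vehicle CLDN5, CTSS and KRT10 fell and COL1A1, PDGFRA and ITGAM rose, the KRT10 call being lost without 30 mpk replicate 1 (adjusted p = 0.0707) and the ITGAM call on leaving out any 1 of 10 libraries (adjusted p up to 0.11). With Helicon4neg against vehicle 0 of 13 passed by limma, beside 4.84% of all genes. Of these 2 had an unadjusted p under 0.05, and edgeR and DESeq2 called 0. No marker was at 0 in all libraries of a group. Whether these markers came from such cells or from tumor cells was not tested, nor was the part of such cells in the results above.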

How the data were processed

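Sequencing of polyA RNA used a NovaSeq S4, and the labels give both an NEBNext Ultra II Directional kit (for extraction) and a TruSeq stranded mRNA kit (for libraries). Per the submitters' processing notes, the tools were Trimmomatic 0.39, STAR 2.7.7a, featureCounts of Subread 2.4.2 and edgeR 4.0.2 with GRCh38, whose settings and annotation are not given in the sources used here and which include no mouse genome. Each deposited value is a signal that the authors derived from counts by an effective library size, which amounts to CPM on their scaling. All values of each library were whole multiples of 1 read within 0.05 reads. Of 29 columns, 24 were assigned by the sample accession in their name and 5 (100 mpk) by the code in the sample title, and no columns were identical.

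The members and gene lists were chosen with earlier results of these data known. The 13373 genes that reached 1 CPM in 5 or more libraries entered a single limma 3.58.1 fit (R 4.3.3; two-sided, with trend and robust moderation) of log2(CPM + 1) over all 4 groups, and p-values were adjusted by Benjamini-Hochberg at a threshold of 0.05. The 5 comparisons were each of the other groups against vehicle, Helicon4 against Helicon4neg at 30 mpk, and 100 against 30 mpk. List genes named were up to 6 called genes per list by smallest adjusted p, plus 30 genes set by name, where analysed. One gene that this rule names is not reported here. For each member the 5 genes with the highest Pearson's r are named. Alternatives were other pseudocounts, filters, scalings and blocks, edgeR 4.0.16 and DESeq2 1.42.0 on recovered whole reads, and leaving out libraries; a covariate for the length slope was added after the data were seen. The fit was tested on simulated data. Promoter sequence is from RefSeq.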

Additional observations from a re-analysis of the deposited data

Results flagged for a closer look

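Of 188 groups of 5 to 10 libraries, over 47 genes, 18 held 1 library far from the others of its group, where chance gives about 1 in 20. Helicon4neg replicate 2 and vehicle replicate 6, which stood apart in their slope on gene length, account for 12 of them.

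DEFA5 was highest in Helicon4neg replicate 2 at 163 CPM, with the next library at 86.2 CPM, and in vehicle replicate 6 at 179 CPM, with the next at 109 CPM. Both values lie on the side away from the Helicon4 groups. No library of ATOH1 or KLF4 was far from its group by this measure.

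Helicon4neg replicate 2 was also far above its group in HES6 (167 CPM), ASCL2 (138), DLL3 (26.6) and KLF16 (79.7). It was far below its group in SOX4 (104 CPM), MAML3 (7.95), KLF5 (3.18), IL17RB (15.2), TCF7L2 (18.5) and TCF12 (19.9). Among the Helicon4 libraries, 100 mpk replicate 4 was high in KLF5 (21.2 CPM), BMX (4.36) and HES1 (30.2), 100 mpk replicate 2 was low in HUWE1 (335) and 30 mpk replicate 6 was high in CA2 (4.38). Vehicle replicate 1 was low in TCF3 (134 CPM).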

How the results depend on the processing

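DEFA5, ATOH1 and KLF4 kept the direction of their differences from vehicle and from Helicon4neg for Helicon4 under every alternative run. The 5 CPM filter left out ATOH1 and KLF4. Sizes moved by more than the SD between libraries in these cases. With a pseudocount of 0.1 DEFA5 at 100 mpk against vehicle was -5.53, and KLF4 was -1.51, -0.89 and 1.17 against vehicle (100 mpk, 30 mpk, Helicon4neg), -2.06 for Helicon4 against Helicon4neg and -0.62 between the doses. On whole reads KLF4 was, in the same order, -1.78, -1.11, 1.28, -2.39 and -0.67 by edgeR and -1.80, -1.10, 1.28, -2.38 and -0.70 by DESeq2. The title code as a block gave KLF4 -1.12 at 100 mpk and -0.91 at 30 mpk against vehicle, and ATOH1 0.81 for Helicon4 against Helicon4neg and 0.12 between the doses. The cause of these moves was not tested. Standard errors were wide under that block. Against vehicle at 100 and 30 mpk ATOH1 stood at 0.65 ± 0.37 and 0.53 ± 0.29 (SE). KLF4 stood at -1.12 ± 0.57 and -0.91 ± 0.45, and at 0.41 ± 0.26 with Helicon4neg. DEFA5 stood at -4.84 ± 0.84 and -3.36 ± 0.66.

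Counts over all genes (4043, 1481, 647, 2018 and 482, in the order used in the report: against vehicle 100 mpk, 30 mpk and Helicon4neg, then Helicon4 against Helicon4neg, then the doses) became 141, 74, 2, 184 and 10 under a block for the title code. With the length slope as covariate the last 4 were 2263, 2386, 3447 and 2021. Helicon4neg against vehicle gave 374 with only its 2 groups fitted, 1105 by DESeq2 and 2025 without the 2 libraries that stood apart, and the doses gave 750 by DESeq2 and 1051 without those libraries. List genes called (47, 21, 4, 26 and 5) became 3, 1, 0, 5 and 0 with the title code. For Helicon4neg against vehicle they were 2 with only 2 groups, 2 with the replicate number as a block, 9 by DESeq2, 16 without the 2 libraries and 19 with the length slope. Between the doses they were 3 with columns rescaled, 2 with the replicate block, 11 by DESeq2, 14 without the 2 libraries and 29 with the length slope.

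Leaving out single libraries gave 2947 to 5251, 983 to 2534, 381 to 2592, 1500 to 2295 and 203 to 795 genes, and 37 to 54, 18 to 32, 2 to 22, 19 to 30 and 1 to 11 list genes; Helicon4neg replicate 2 left out gave the highest of each. At 100 mpk against vehicle the title code turned the sign of HES6 (0.18), ASCL2 (0.22), DLL3 (0.32), KLF6 (-0.35), KLF16 (0.27), SYP (0.41), BMX (-0.12) and KRT20 (-0.58). In HES6, ASCL2, DLL3 and KLF16, Helicon4neg replicate 2 was far above its group, and its code, SH7080, links Helicon4neg to vehicle. The part of that library in the turned signs was not tested. The replicate number is no pairing: among 35 pairs of equal number, correlations of deviations from group means lay between -0.70 and 0.52, with 15 above 0.1, and 0 of 27 libraries were closest to their own number. As a block it ended the calls of CPE (adjusted p = 0.0811) and KLF12 (0.15) at 100 mpk, ID1 (0.143) and CDX2 (0.11) for Helicon4neg, SOX4 (0.0565) and GFI1 (0.0839) for Helicon4 against Helicon4neg, and CD24 (0.0503) and KLF15 (0.062) between the doses. With only 2 groups fitted ID1 (0.0978), CDX2 (0.0596) and KLF15 (0.0653) lost these calls, edgeR lost ID1 (0.0537), and the length slope ended those of BMX at 100 mpk (0.0534) and of ALOX5AP (0.0838) and HES1 (0.069) at 30 mpk against vehicle. KLF4 is limited by depth, at 6 to 30 reads per library at 100 mpk.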
